A study of Mus musculus with 93 samples.

Results

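The genes described here are 36 lysosomal genes, chosen by name out of 24514 gene symbols measured by RNA sequencing in cells of the forming heart. They comprise 10 proteases and protease-like hydrolases, 10 enzymes of glycan breakdown, 9 genes of lipid handling with their cofactors, and 7 proteins of the lysosomal membrane. All 36 were found in the count table. In embryos and in spheroids, the proteases Ctsb, Ctsd, Ctsl and Tpp1, the cofactor precursor Psap and the membrane gene Laptm4a had higher transcript levels in GFP+ cells than in RFP+ cells. In spheroids nearly all other tested members were higher in GFP+ cells as well, whereas in embryos the other tested members did not pass the test and 9 members had too few reads to be tested.

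Lysosomes are acidic organelles in which proteins, glycans and lipids delivered by endocytosis and autophagy are taken apart. Most of their hydrolases are made in the endoplasmic reticulum, tagged with mannose-6-phosphate, carried by receptors and activated by the low pH that a proton pump maintains. The transcription factors TFEB, TFE3 and MITF switch on many of these genes together. Loss of single members causes lysosomal storage diseases, several of which affect heart muscle.

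The study compared progenitors of the first heart field (FHF) with those of the second heart field (SHF). GFP+ cells express green fluorescent protein from an Hcn4 reporter, which marks FHF cells as long as Hcn4 is active, and RFP+ cells carry the permanent red label of the Ai9 allele after recombination by Tbx1-Cre, so they include all descendants of Tbx1-expressing cells, whether or not Tbx1 is still on. Every library came from cells that carry all 3 alleles (Hcn4-GFP; Tbx1-Cre; Ai9), taken either from mouse embryos (in vivo) or from spheroids made from 1 embryonic stem cell line of such mice at day 5.5 of differentiation (in vitro). The embryos were collected at E7.75 by the protocol, while the sample titles say E8.5. Each library was a pool of 10 sorted cells in 1 well of a plate, with 5 GFP+ and 4 RFP+ libraries in vivo and 38 GFP+ and 46 RFP+ libraries in vitro. Nothing ties wells to embryos or to separate differentiations, so n counts wells, and the p-values measure the spread between wells, which may be technical. In such pools, fewer cells of a type and less RNA per cell cannot be told apart.

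Between 712732 and 2525460 reads were counted per GFP+ library in vivo, and between 1246546 and 1479957 per RFP+ library. Between 6189 and 8302 genes were detected in the embryo GFP+ libraries, fewer than the 10263 to 13052 in the RFP+ libraries. In vitro totals ran from 445071 to 5658882 in RFP+ libraries and from 828193 to 4371849 in GFP+ libraries, apart from 1 GFP+ library of 6288 reads. That library was kept in the tests and left out of the ranges given here, so that GFP+ ranges in vitro cover 37 libraries. In vitro, RFP+ cells filled plate columns 1 to 6 and GFP+ cells columns 7 to 11, which means that the effect of population cannot be told apart from that of the plate column. In vivo, GFP+ libraries stood in rows A to E of column 12 and RFP+ libraries in rows F to H of columns 11 and 12. Population and plate row cannot be told apart there. The mean level of Hcn4 was 14.9 counts per 1000000 (CPM, the scaled unit of all levels given here) in GFP+ and 0.358 in RFP+ cells in vivo, and 7.56 against 0.445 in vitro. Tbx1 was read in no embryo GFP+ library and averaged 3.94 CPM in embryo RFP+ libraries. Cardiac muscle genes (10 genes, among them Tnnt2 and Myl7) summed to 16730 to 49140 CPM in embryo GFP+ libraries, but only to 14.4 to 969 CPM in spheroid GFP+ libraries and 11.3 to 123 CPM in spheroid RFP+ libraries.

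Many lysosomal promoters carry copies of the palindrome CACGTG, and TFEB is known to bind its extended form TCACGTGA. The 300-base windows around their transcription starts (250 bases before to 50 after) were read from RefSeq on GRCm38.p6, with 36 windows for 31 of the members. CACGTG was found in 12 of the 36 windows (33.3%), one for each of 12 genes, and in 7.15% of all 32851 windows in the table. The longer TCACGTGA, which contains the shorter motif, was found in 3 member windows (8.33%) and in 0.974% of all windows. Both motifs are their own reverse complement, so each match counts for both strands, and a match is a description of letters and not of binding. The windows of 4 members whose levels differed in the comparisons are shown, with the motifs in capitals. Ctsd lies on the minus strand at chr7:142387778-142388077 and Ctsl on the minus strand at chr13:64370471-64370770. Lamp1 at chr8:13158911-13159210 and Mcoln1 at chr8:3500269-3500568 are on the plus strand.
Ctsd: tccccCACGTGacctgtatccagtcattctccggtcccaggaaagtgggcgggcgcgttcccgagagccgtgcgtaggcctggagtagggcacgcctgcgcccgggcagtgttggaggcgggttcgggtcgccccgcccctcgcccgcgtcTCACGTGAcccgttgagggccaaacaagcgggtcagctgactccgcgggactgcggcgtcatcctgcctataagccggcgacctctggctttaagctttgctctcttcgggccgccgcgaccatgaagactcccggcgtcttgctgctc
Ctsl: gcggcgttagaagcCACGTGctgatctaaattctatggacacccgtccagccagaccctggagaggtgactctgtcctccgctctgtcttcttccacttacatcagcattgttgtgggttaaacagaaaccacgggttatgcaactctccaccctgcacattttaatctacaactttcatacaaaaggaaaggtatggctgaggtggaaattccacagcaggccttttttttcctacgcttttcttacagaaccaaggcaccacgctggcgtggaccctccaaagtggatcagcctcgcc
Lamp1: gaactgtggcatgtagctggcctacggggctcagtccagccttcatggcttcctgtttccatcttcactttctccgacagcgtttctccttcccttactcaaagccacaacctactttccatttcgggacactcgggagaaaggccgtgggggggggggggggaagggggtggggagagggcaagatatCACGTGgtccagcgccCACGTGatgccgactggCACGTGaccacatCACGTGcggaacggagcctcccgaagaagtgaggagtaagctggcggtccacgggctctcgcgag
Mcoln1: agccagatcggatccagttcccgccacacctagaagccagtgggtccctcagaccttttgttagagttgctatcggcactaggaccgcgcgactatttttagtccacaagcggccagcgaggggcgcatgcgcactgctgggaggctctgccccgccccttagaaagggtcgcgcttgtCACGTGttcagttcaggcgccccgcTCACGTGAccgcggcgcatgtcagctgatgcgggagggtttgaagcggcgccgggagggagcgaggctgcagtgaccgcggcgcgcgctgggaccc
Lamp1 held 4 copies of CACGTG, and Ctsd and Mcoln1 held 2 each, 1 of them in the longer form. The motif was also found for Ctsa, Ctsf, Lgmn, Gaa, Glb1, Naglu, Sgsh and Arsa. Members with and without it had close median log2 fold changes between RFP+ and GFP+ cells in vitro, of -1.58 over 9 tested genes and -1.52 over 17. No window was listed for Ctsb, Ctsh, Npc1, Asah1 or Laptm4b.

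Summed over all 36 members, transcript levels were higher in GFP+ than in RFP+ libraries in both sources, with no overlap. The sum per library ran from 3915 to 7081 CPM in vivo GFP+ (median 4940, n = 5) and from 2485 to 3398 CPM in vivo RFP+ (median 2679, n = 4). In vitro it ran from 5749 to 9935 CPM in GFP+ (median 8293, n = 37) and from 1852 to 3733 CPM in RFP+ libraries (median 2808, n = 46). The sum is set mainly by a few members with many reads and is given as a description with no test. Reads were found for 21 to 30 of the members in embryo GFP+ libraries, which also had fewer detected genes, for 29 to 36 in embryo RFP+ and for 33 to 36 in spheroid GFP+ libraries. The proteases took the largest share of the reads in GFP+ cells, with medians of 3132 CPM in vivo and 3889 CPM in vitro, against 1248 and 1037 CPM in RFP+ cells. In the glycan group the embryo populations overlapped widely (85.1 to 552 CPM in GFP+, 145 to 365 CPM in RFP+), whereas in spheroids every GFP+ library (534 to 1171 CPM) was above every RFP+ library (108 to 356 CPM).

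**Figure D1:**
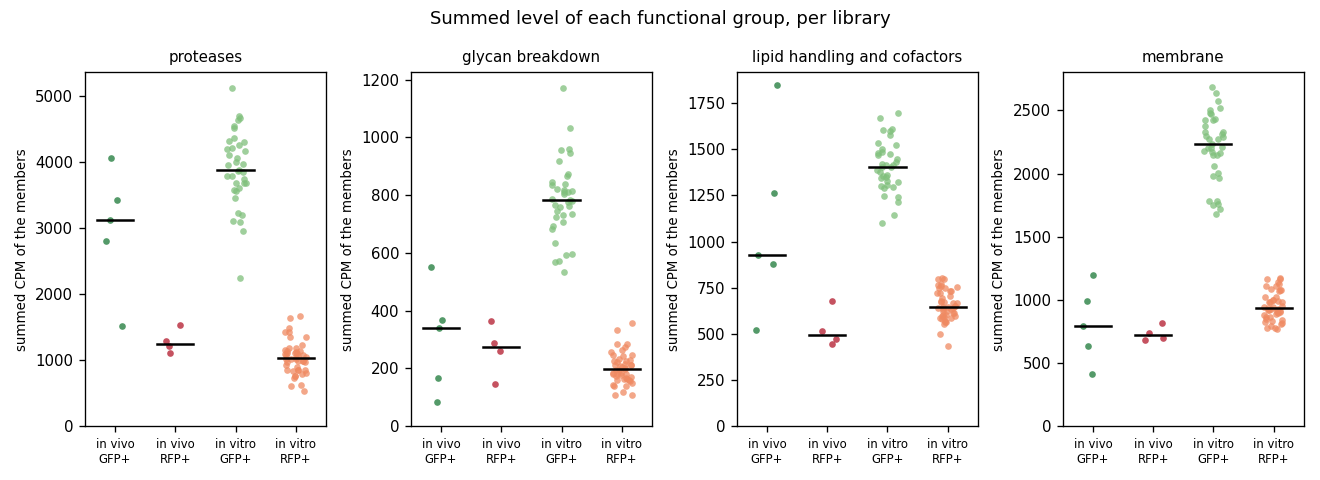
Summed CPM of the members of each functional group on the vertical axis (starting at 0), with 1 point per library in each of the 4 groups on the horizontal axis and a line at the median. In spheroids GFP+ points lie above all RFP+ points in all 4 panels, while in embryos the populations overlap in each panel.

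The test for each gene compared RFP+ with GFP+ cells in edgeR, separately in vivo and in vitro, and a gene is called here when its p adjusted over all genes tested was under 0.1, the threshold of the study. In vivo, 27 of the 36 members had enough reads to be tested and 6 were called, all with higher levels in GFP+ cells, namely Ctsb, Ctsd, Ctsl, Tpp1, Psap and Laptm4a. Of all 8503 genes tested in vivo, 10.1% were called and 3.88% were called higher in GFP+ cells. The median log2 fold change of the 27 members, RFP+ over GFP+, was -1.03, against 0.09 for all genes, with 21 negative and 6 positive values. With no filter on low counts all 36 could be fitted and 8 were called, of which 5 had higher levels in GFP+ cells and 3 in RFP+ cells (Naglu, Arsb and Scarb2). Of all 15111 genes in that fit, 13.2% were called in either direction. The median over the 36 was then -0.92, against 0.77 for all genes. With members of at most 3 counts in every library of a group set to their bound, the members' median was -0.84. No such bound was set for all genes. In vitro, 30 members were tested and 29 were called, again all higher in GFP+ cells. Of all 9940 genes tested in vitro, 77.9% were called and 40.1% were called higher in GFP+ cells, so a call alone says little there. The median log2 fold change of the 30 members was -1.52, against -0.02 for all genes. With the filter, no member was called in opposite directions in the 2 sources, which follows from all these calls being higher in GFP+ cells. With no filter Scarb2 was, at 5.00 in embryos (adjusted p = 0.0982) and -1.47 in spheroids (adjusted p = 2.02e-18). DESeq2 gave it 5.05 (adjusted p = 0.00679) and -1.53 (adjusted p = 1.3e-30). In 1 edgeR fit over the 4 groups, Ctsf, Ctsz, Lamp1 and Cd63 were also called positive in embryos and negative in spheroids. When any 1 of the 9 embryo libraries was left out, Ctsd and Laptm4a were called in 9 of 9 fits, Ctsb in 7, Ctsl and Psap in 5 and Tpp1 in 2, and without RFP+ replicate 2 or 4 just 2 members were called in all.

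**Figure D2:**
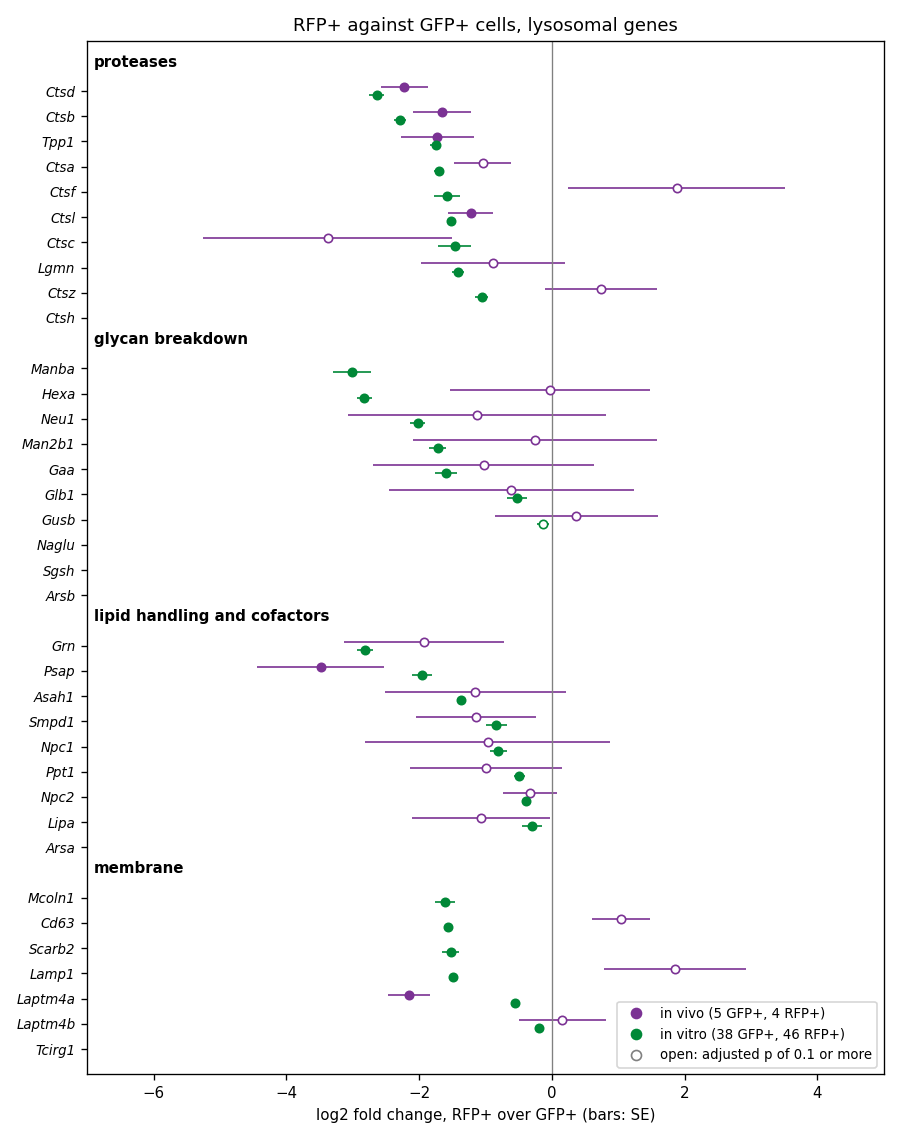
Log2 fold change of RFP+ over GFP+ cells (horizontal axis, bars show the standard error) for each member, grouped by function, in vivo (purple) and in vitro (green). Filled points were called, open points were not, and members without a point had too few reads. Green points lie left of 0 throughout, and the 6 filled purple points lie left of 0 as well.

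Of the proteases, 4 of 9 tested were called in vivo and 9 of 9 in vitro. Ctsd encodes cathepsin D, the main aspartic protease of lysosomes, and lies at chr7:142375911-142388038 (minus strand, GRCm38). In vivo its level was 948, 849.5, 305, 621 and 689 CPM in the GFP+ libraries and 198, 107, 115 and 177 CPM in the RFP+ libraries. All GFP+ libraries were above all RFP+ libraries, and Ctsd was 4.68-fold higher in GFP+ cells (log2 fold change -2.23 ± 0.35 SE, adjusted p = 0.00207). In vitro it ran from 521 to 1589 CPM in GFP+ libraries (median 1114) and from 49.4 to 454 CPM in RFP+ libraries (median 154), again without overlap and 6.22-fold higher in GFP+ cells (-2.64 ± 0.12, adjusted p = 1.54e-38). Ctsb (chr14:63122462-63145923, plus strand) encodes cathepsin B, a cysteine protease. It measured 813, 795.5, 304, 512 and 1209 CPM in embryo GFP+ libraries and 308, 188, 351 and 106 CPM in embryo RFP+ libraries. The lowest GFP+ library fell among the RFP+ libraries, and the other 4 were above them, with a log2 fold change of -1.65 ± 0.43 (adjusted p = 0.0314). In vitro Ctsb was 4.88-fold higher in GFP+ cells (415 to 1203 CPM, median 820 against 71.9 to 346 CPM, median 167), with no overlap (adjusted p = 1.36e-40).

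Ctsl (chr13:64359337-64370890, minus strand) encodes cathepsin L, an endopeptidase that also takes part in processing other hydrolases. In vivo it reached 448, 1424, 505, 621 and 547.5 CPM in GFP+ libraries and 302, 367, 253 and 324.5 CPM in RFP+ libraries. Every GFP+ library was higher than every RFP+ library, GFP+ replicate 2 stood far above the rest, and the log2 fold change was -1.22 ± 0.34 (adjusted p = 0.0466). In vitro GFP+ libraries (734 to 1297 CPM, median 1011) did not overlap RFP+ libraries (207 to 497 CPM, median 361), and Ctsl was 2.87-fold higher in GFP+ cells (adjusted p = 1.77e-48). Tpp1 (chr7:105744811-105752235, minus strand) encodes tripeptidyl peptidase 1, which trims peptides from their amino end and is lost in a childhood neuronal ceroid lipofuscinosis. Its level was 276, 271, 89.3, 218 and 111 CPM in embryo GFP+ libraries and 87.4, 44.98, 59.1 and 45.9 CPM in embryo RFP+ libraries. The groups came close to each other at 89.3 and 87.4 CPM without overlapping, and the log2 fold change was -1.73 ± 0.55 (adjusted p = 0.0827). In vitro Tpp1 was 3.36-fold higher in GFP+ cells (-1.75 ± 0.08, adjusted p = 2.33e-36), nearly the same log2 value as in vivo. Ctsz encodes cathepsin Z, a carboxypeptidase, and had the opposite order in embryos. It was at 261, 163, 0, 161 and 251.3 CPM in GFP+ libraries and at 337, 272, 268.5 and 265 CPM in RFP+ libraries, so all RFP+ libraries were higher, yet the difference did not pass the test (0.74 ± 0.84, adjusted p = 0.835). In vitro Ctsz was called in the other direction, with medians of 147 CPM in GFP+ and 69.4 CPM in RFP+ libraries (-1.05 ± 0.10, adjusted p = 3.24e-17). The remaining proteases Ctsa, Ctsc, Ctsf and Lgmn were not called in vivo (log2 fold changes from -3.38 for Ctsc to 1.88 for Ctsf) and were called higher in GFP+ cells in vitro, from -1.42 for Lgmn to -1.70 for Ctsa. Ctsh had too few reads to be tested in either source.

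**Figure D3:**
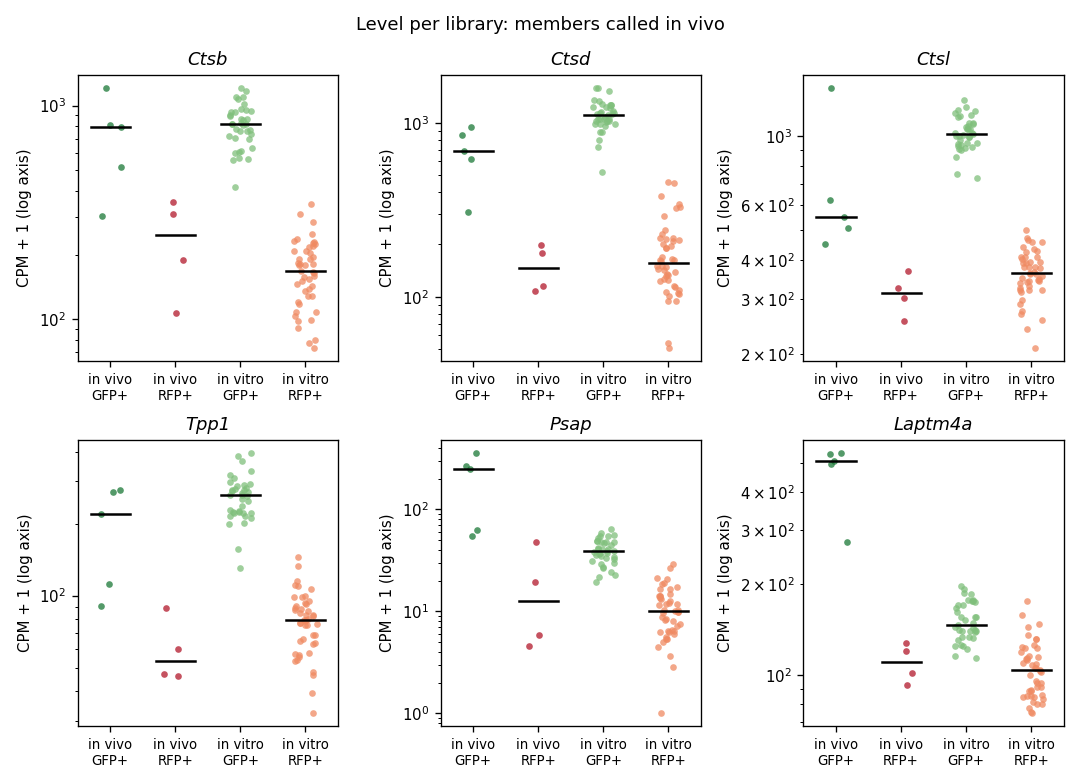
CPM + 1 per library (vertical log axis) of the 6 members called in vivo, with 1 point per library in each of the 4 groups and a line at the median. Ctsd, Ctsl, Tpp1, Psap and Laptm4a show no overlap between the embryo populations, and Laptm4a is higher in embryo GFP+ libraries than in every spheroid library.

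None of the 6 tested genes of glycan breakdown was called in vivo, and 6 of 7 were called in vitro. Hexa (chr9:59539540-59565109, plus strand) encodes the alpha subunit of beta-hexosaminidase, the enzyme that is missing in Tay-Sachs disease. In vivo it was at 57.1, 226, 0, 35.96 and 0 CPM in GFP+ libraries and at 86.0, 92.1, 5.07 and 69.5 CPM in RFP+ libraries. The groups overlapped, single libraries in each were at or near 0, and the log2 fold change was -0.03 ± 1.51 (adjusted p = 0.998, positive when scaled by total counts). In vitro Hexa ran from 296 to 826 CPM in GFP+ libraries (median 477) and from 15.5 to 159 CPM in RFP+ libraries (median 63.4). There was no overlap, and Hexa was 7.08-fold higher in GFP+ cells (-2.82 ± 0.11, adjusted p = 1.47e-41). Manba encodes beta-mannosidase, which removes mannose late in the breakdown of N-glycans, and had the largest fold change of the members in vitro. It was at low levels, 1.58 to 60.8 CPM in GFP+ libraries (median 25.7) against 0 to 19.9 CPM in RFP+ libraries (median 1.14), where 15 of 46 libraries had no read. Manba was 8.07-fold higher in GFP+ cells in vitro (-3.01 ± 0.29, adjusted p = 1.16e-16), and 27 of 37 GFP+ libraries were above the highest RFP+ library. In vivo it was read in 2 of 5 GFP+ libraries, at 13.8 and 140.1 CPM, and in 1 RFP+ library at 3.64 CPM, which was too sparse for the fit.

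Naglu and Arsb, which act on heparan sulfate and on dermatan sulfate, had no read in any embryo GFP+ library. Naglu was at 4.37, 0.703, 6.75 and 5.01 CPM in embryo RFP+ libraries, and Arsb at 6.56, 4.22, 0.844 and 2.15 CPM. Against a floor of 3 counts per GFP+ library, the mean RFP+ level was at least 1.64-fold higher for Naglu and at least 1.34-fold higher for Arsb. Neither passed the filter on low counts. With no filter edgeR called both, in favour of RFP+ cells (adjusted p = 0.0707 for Naglu and 0.0786 for Arsb), and DESeq2 called Naglu (adjusted p = 0.0774) but not Arsb (adjusted p = 0.122). In vitro both had medians of at most 2.53 CPM in both populations and were not tested. Neu1, Man2b1 and Gaa, which remove sialic acid, mannose and glucose, were 4.06-, 3.30- and 3.02-fold higher in GFP+ cells in vitro, and every GFP+ library was above every RFP+ library for Neu1. Glb1, the beta-galactosidase used as a stain for senescent cells, was higher by only 1.44-fold in GFP+ cells in vitro. Gusb, beta-glucuronidase, was the tested member that was not called in vitro, with medians of 51.7 CPM in GFP+ and 48.8 CPM in RFP+ libraries (-0.13 ± 0.09, adjusted p = 0.202). Sgsh was not tested in either source.

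Among the genes of lipid handling and their cofactors, 1 of 8 was called in vivo and 8 of 8 in vitro. Psap (chr10:60277627-60302597, plus strand) encodes prosaposin, the precursor of the saposins that present sphingolipids to their hydrolases. It measured 53.8, 360, 248, 61.6 and 266 CPM in embryo GFP+ libraries and 18.2, 4.92, 47.3 and 3.58 CPM in embryo RFP+ libraries. The groups did not overlap, and Psap had the largest change of the called members in vivo, 11.2-fold higher in GFP+ cells (-3.48 ± 0.96, adjusted p = 0.0405). With single libraries left out, its log2 fold change ran from -3.12 without GFP+ replicate 2 to -4.50 without RFP+ replicate 3. In vitro levels were lower, from 18.6 to 63.5 CPM in GFP+ libraries (median 37.7) and from 0 to 27.9 CPM in RFP+ libraries (median 8.98), and 31 of 37 GFP+ libraries were above the highest RFP+ library (-1.96 ± 0.15, adjusted p = 3.03e-22). Grn (chr11:102430315-102437048, plus strand) encodes progranulin, a secreted and lysosomal cofactor that binds prosaposin. It was at 95.8, 168, 167, 118 and 0 CPM in embryo GFP+ libraries and at 43.7, 48.5, 12.7 and 13.6 CPM in embryo RFP+ libraries. In 4 GFP+ libraries Grn was above every RFP+ library, while GFP+ replicate 5 had no read, and the difference was not called (-1.93 ± 1.20, adjusted p = 0.549). In vitro Grn was 7.01-fold higher in GFP+ cells (227 to 617 CPM, median 384, against 16.97 to 129 CPM, median 58.3), with no overlap (-2.81 ± 0.12, adjusted p = 2.02e-39).

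Npc2 encodes the soluble protein that hands cholesterol to the membrane protein NPC1. In vivo its GFP+ libraries (193, 128, 280.2, 266 and 459 CPM) overlapped its RFP+ libraries (275, 211, 199 and 195 CPM), and it was not called (-0.33 ± 0.40, adjusted p = 0.858). In vitro its medians of 395 CPM in GFP+ and 306.5 CPM in RFP+ libraries differed by less than for most members, but the tight spread within each population left it called (-0.39 ± 0.04, adjusted p = 9.96e-16). Asah1, the acid ceramidase, was 2.59-fold higher in GFP+ cells in vitro with no overlap between the populations. The smaller changes in vitro were those of Npc1, Smpd1, Ppt1 and Lipa, from -0.84 for Smpd1 to -0.30 for Lipa, and Lipa, the acid lipase for cholesteryl esters, was only just called (adjusted p = 0.0625). In vivo the log2 fold changes of these 4 genes and of Asah1 lay between -1.15 and -0.97, and none passed the test. Single libraries set some of these values, since Lipa turned to 0.42 without GFP+ replicate 3 (503 CPM in that library), Npc1 to 0.06 without GFP+ replicate 2 and Asah1 to -0.47 without GFP+ replicate 3. Arsa was not tested in either source.

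Of the membrane members, in vivo 1 of 4 tested was called and 3 of the 4 had positive values, whereas in vitro all 6 tested were called higher in GFP+ cells. Laptm4a (chr12:8921664-8938742, plus strand) encodes a small transmembrane protein of late endosomes and lysosomes. It measured 540.4, 507, 495, 273 and 534 CPM in embryo GFP+ libraries and 119, 100.5, 92.0 and 126 CPM in embryo RFP+ libraries. Without overlap, it was 4.44-fold higher in GFP+ cells (-2.15 ± 0.32, adjusted p = 0.00133), which was the lowest adjusted p of the members in vivo. In vitro GFP+ libraries (113 to 195.5 CPM, median 146) overlapped RFP+ libraries (73.8 to 174 CPM, median 103), and the difference was smaller (-0.56 ± 0.06, adjusted p = 9.9e-15). Its relative Laptm4b changed little, with medians of 240.5 CPM in GFP+ and 212 CPM in RFP+ libraries in vitro (-0.19 ± 0.06, adjusted p = 0.00177) and no call in vivo (0.16 ± 0.66, adjusted p = 0.975).

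Cd63 (chr10:128900989-128912822, plus strand) encodes a tetraspanin of late endosomes, lysosomes and secreted vesicles. In vivo it measured 112, 308, 76.9, 88.7 and 131.5 CPM in GFP+ libraries and 326, 292, 315 and 283 CPM in RFP+ libraries. In 4 of 5 GFP+ libraries Cd63 was below every RFP+ library, GFP+ replicate 2 lay among them, and the difference was not called (1.04 ± 0.44, adjusted p = 0.239). Without that library it was called higher in RFP+ cells (adjusted p = 0.0179). In vitro the order was turned, from 947 to 1759 CPM in GFP+ libraries (median 1360.0) against 299 to 661 CPM in RFP+ libraries (median 447), with no overlap (-1.56 ± 0.06, adjusted p = 3.33e-45). Lamp1 (chr8:13159161-13175338, plus strand) encodes a heavily glycosylated protein that lines the lysosomal membrane. In vivo it was at 11.8, 51.0, 0, 25.7 and 82.3 CPM in GFP+ libraries and at 94.0, 149, 127 and 142 CPM in RFP+ libraries. All RFP+ libraries were higher, but Lamp1 did not pass the test (1.85 ± 1.07, adjusted p = 0.494). In vitro it ran from 266 to 493 CPM in GFP+ libraries (median 377) and from 64.3 to 181 CPM in RFP+ libraries (median 138), without overlap (-1.50 ± 0.05, adjusted p = 1.9e-44). Mcoln1, the calcium channel TRPML1 of the lysosome, was 3.04-fold higher in GFP+ cells in vitro (medians 25.3 and 8.63 CPM, -1.61 ± 0.15, adjusted p = 1.07e-17). Scarb2, the receptor that brings glucocerebrosidase to the lysosome, was chosen after its values were seen. Embryo GFP+ libraries held 2 of its reads in all, against 67 in embryo RFP+ libraries, a ratio of 44.6 between the pooled rates (95% exact binomial interval 11.9 to 375.6, counting error only). Its RFP+ libraries read 13.8, 21.1, 0.844 and 12.2 CPM, and it was under the filter on low counts. With no filter edgeR called Scarb2 higher in RFP+ cells (adjusted p = 0.0982), as did DESeq2 (adjusted p = 0.00679). Tcirg1, a subunit of the proton pump, was not tested in either comparison.

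**Figure D4:**
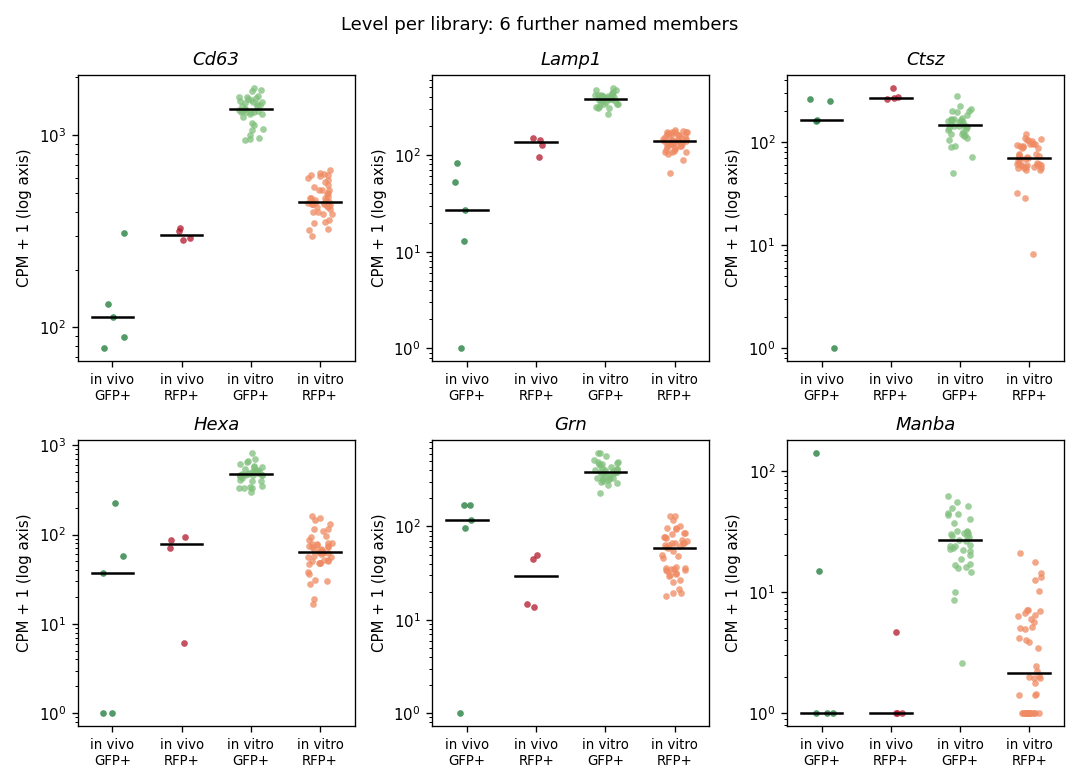
CPM + 1 per library (vertical log axis) of Cd63, Lamp1, Ctsz, Hexa, Grn and Manba, with 1 point per library in each of the 4 groups and a line at the median. For Lamp1 and Ctsz the embryo RFP+ libraries lie above all embryo GFP+ libraries, while in spheroids the GFP+ median is the higher one in every panel.

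Counted over the embryo libraries, 5 tested members had every GFP+ library above every RFP+ library (Ctsd, Ctsl, Tpp1, Psap and Laptm4a), which 3.60% of the tested genes showed. In the opposite direction stood 2 tested members, Ctsz and Lamp1, along with Naglu and Arsb, which were not tested, and 13.7% of the tested genes. In spheroids 10 members had all 37 GFP+ libraries above all 46 RFP+ libraries, a pattern of 1.94% of the tested genes. They were Ctsa, Ctsb, Ctsd, Ctsl, Hexa, Neu1, Asah1, Grn, Lamp1 and Cd63.

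Whether the change between populations differed between spheroids and embryos was tested as the difference of the 2 log2 fold changes. Of 27 members, 2 were called, and 5.26% of the 8182 genes tested were called. For Cd63 the log2 fold change was positive in vivo and negative in vitro (difference -2.60 ± 0.44, adjusted p = 0.0368). For Laptm4a it was less negative in vitro (difference 1.60 ± 0.33, adjusted p = 0.0539). Without RFP+ replicate 2 the Laptm4a difference was no longer called (adjusted p = 0.137), while that of Cd63 kept an adjusted p of 0.012 to 0.0871 whichever embryo library was left out. Lamp1 had a larger difference (-3.34 ± 1.07) that was not called (adjusted p = 0.212). For Ctsd and Tpp1 the differences of -0.41 ± 0.37 and -0.02 ± 0.55 did not pass the test (adjusted p = 0.837 and 0.995).

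Comparison of cells with the same reporter between the sources used the embryo and spheroid libraries of GFP+ cells, and separately those of RFP+ cells. These comparisons share their libraries with those above. Embryo GFP+ libraries stood in plate column 12 and spheroid GFP+ libraries in columns 7 to 11. Embryo RFP+ libraries stood in columns 11 and 12 and spheroid RFP+ libraries in columns 1 to 6. Source, plate column and stage of the cells cannot be told apart here. Cardiac muscle genes summed to 16730 to 49140 CPM in embryo GFP+ and 14.4 to 969 CPM in spheroid GFP+ libraries. In GFP+ cells 24 of 35 tested members were called, 19 higher in vitro and 5 higher in vivo. Of all genes, 68.0% were called, 48.3% higher in vitro and 19.7% higher in vivo. The median log2 fold change was 0.56 for the members and 0.67 for all genes. With Naglu and Scarb2, which had 0 and 2 reads in embryo GFP+ cells, set to their lower bounds, the members' median was 0.52. Scaled by the size factors of DESeq2, the median of all genes fell to 0.22 and the members split into 12 higher in vitro and 9 higher in vivo, and DESeq2 itself gave 14 and 8. The shares of all genes called are not given for these settings. Lamp1 (3.59 ± 0.31, 12.0-fold), Cd63 (3.36 ± 0.21, 10.3-fold), Hexa (2.99 ± 0.44, 7.94-fold), Grn (1.99 ± 0.32) and Asah1 (1.88 ± 0.43) were higher in spheroid GFP+ cells under each scaling, and they exceeded the median of all genes by 1.21 to 2.92. Scarb2 went from 2 reads in all embryo GFP+ libraries to a mean of 49.2 CPM in vitro, a ratio of pooled rates of 185 (95% exact binomial interval 51.2 to 1530.0). Psap (-2.22 ± 0.23), Lipa (-2.11 ± 0.41), Ctsc (-1.67 ± 0.49), Smpd1 (-1.53 ± 0.27) and Laptm4a (-1.49 ± 0.12) were higher in embryo GFP+ cells under each scaling. Of the 7 membrane members, 6 were called with higher levels in vitro, and Laptm4a was the exception. Laptm4b lost its call with the size factors of DESeq2 (0.37, adjusted p = 0.159).

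RFP+ cells differed less between the sources. There 12 of 33 tested members were called, 5 higher in vitro and 7 higher in vivo, and of all genes 42.6% were called, 22.5% higher in vitro and 20.1% higher in vivo. The medians were 0.06 for the members and 0.04 for all genes. Ctsz fell from a range of 265 to 337 CPM in embryos to a median of 69.4 CPM in spheroids (-1.98 ± 0.18, adjusted p = 7.59e-14). Lipa (-1.58 ± 0.24), Smpd1 (-1.41 ± 0.34) and Gusb (-1.16 ± 0.19) were also higher in embryos, and Asah1 (1.46 ± 0.20), Neu1 (1.40 ± 0.44) and Cd63 (0.61 ± 0.14) were higher in spheroids. Lipa and Smpd1 were thus called higher in vivo in both populations, and Asah1, Neu1, Grn, Npc2 and Cd63 higher in vitro in both. With the size factors of DESeq2, Npc2 lost its call in GFP+ cells (0.20, adjusted p = 0.222). Ctsd, Ctsl, Hexa, Lamp1 and Laptm4a were not called in RFP+ cells, with log2 fold changes from -0.08 to 0.27.

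Compared per kilobase of annotated exon, the order of the members changed with the group. The length joins all annotated exons of a gene and can exceed that of the transcript in use, so the order depends on the annotation. It was 2.35 kb for Ctsd and 6.49 kb for Ctsl, whose mean levels in spheroid GFP+ libraries were 1113 and 1023 CPM. Ctsd ranked first of the 36 by mean CPM per kb in both GFP+ groups, at 290.3 in vivo and 473.5 in vitro. Laptm4a ranked 2nd in embryo GFP+ cells (265) and 12th in spheroid GFP+ cells (84.8), whereas Cd63 moved from 12th (38.97) to 2nd (369) and Hexa from 15th (31.9) to 3rd (244). In RFP+ cells Ctsz ranked first in vivo (198) and Cd63 in vitro (128). Sgsh, Arsb, Tcirg1, Arsa and Ctsh were at or below 2.76 CPM per kb in every group. Reads of amplified cDNA carry no strand, so reads in exons shared with a gene on the other strand cannot be assigned with certainty. Such sharing with a counted gene covered 21.6% of the exon length of Sgsh (Card14) and 18.75% of Arsa (C230037L18Rik). It covered 12.8% of Ctsb (Fdft1) and of Hexa (Tmem202), 10.5% of Ctsa (Pltp) and 9.31% of Lamp1 (Grtp1). Ctsd and Ctsl shared 34.4% and 26.85% of their exon length with gene models that were not in the count table. The model was on the same strand for Ctsd and on the other strand for Ctsl.

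**Figure D5:**
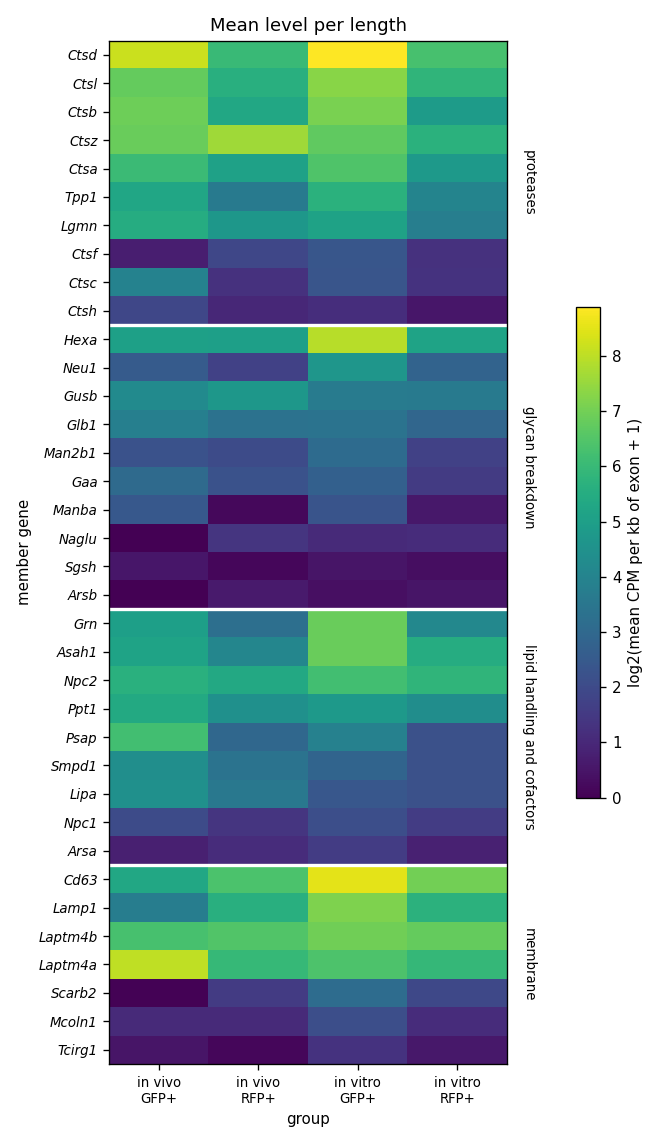
Mean CPM per kb of exon, as log2(value + 1) on the colour scale, for the 36 members (rows, grouped by function) in the 4 groups (columns). Ctsd, Cd63 and Hexa are brightest in spheroid GFP+ cells, and Laptm4a is brighter in embryo GFP+ cells than in the other groups.

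A further list of 73 lysosomal genes, covering the proton pump, other hydrolases and membrane proteins, sorting and regulation, was tested in the same way. In vivo 53 were tested and 6 called, of which 5 were higher in GFP+ cells (median log2 fold change -0.21), and in vitro 64 were tested and 54 called, of which 47 were higher in GFP+ cells (median log2 fold change -1.004). Of all genes, 10.1% were called in vivo and 77.9% in vitro, in either direction, close to the shares called in this list. Called higher in GFP+ cells were 3.88% of all genes in vivo and 40.1% in vitro. Of 15 pump genes tested in vitro, 14 were called, 13 of them higher in GFP+ cells. The 5 that were higher in embryo GFP+ cells were Vps35, Igf2r, M6pr, Lamp2 and Atp6ap1, and the whole list was chosen for its link to the lysosome. Vps35 (256 ± 54.7 CPM in RFP+ and 666 ± 132 CPM in GFP+ libraries, mean ± SD, adjusted p = 0.00664) is the core of the retromer that recycles sorting receptors. Igf2r (204 ± 76.4 and 595 ± 260.4 CPM, adjusted p = 0.0181) and M6pr (138 ± 30.7 and 314 ± 93.3 CPM, adjusted p = 0.0573) are both receptors for mannose-6-phosphate. Lamp2 (116.5 ± 27.8 and 482 ± 234 CPM, adjusted p = 0.0109) is the partner of Lamp1 in the membrane, and Atp6ap1 (72.0 ± 39.9 and 374 ± 214 CPM, adjusted p = 0.0133) is an accessory subunit of the pump. All 5 were also called higher in GFP+ cells in vitro, from -0.90 for M6pr to -1.99 for Lamp2. Lamtor1, which encodes an adaptor protein of the late endosomal membrane, had higher levels in embryo RFP+ cells (1.84 ± 0.46, adjusted p = 0.0236) and in spheroid GFP+ cells (-0.35 ± 0.04, adjusted p = 8.66e-12), a difference that was called (-2.19 ± 0.46, adjusted p = 0.0563). Tfeb was near 0 throughout, at most 2.60 CPM on average, while Tfe3 was higher in GFP+ cells in vitro (41.9 ± 12.7 against 18.8 ± 5.66 CPM, adjusted p = 1.48e-19).

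Markers of other cells moved with the populations, and their part in the results was not tested. In spheroids, 10 endoderm genes summed to 312 to 870 CPM in GFP+ and 66.0 to 385 CPM in RFP+ libraries, and 10 pluripotency genes had medians of 266 and 56.1 CPM. The epithelial genes Epcam, Cldn6, Cdh1 and Trf carried the endoderm sum (Epcam averaged 122 CPM in GFP+ and 28.1 CPM in RFP+ libraries), whereas Foxa2 (2.34 and 9.06 CPM), Foxa1 (1.84 and 4.17 CPM), Sox17 (1.31 and 2.10 CPM) and Spink1 (5.56 and 19.96 CPM) had the opposite order. In embryos the endoderm sum had the opposite order, with 9 of its 10 genes at 0 in all GFP+ libraries (sum 0 to 24.8 CPM) and 23.6 to 721 CPM in RFP+ libraries. Parietal endoderm genes had median sums of 1214 CPM in embryo GFP+ and 709 CPM in embryo RFP+ libraries, and endothelial genes of 34.55 and 258 CPM. Sparc (means of 587 and 209 CPM), Pdgfra (273 and 87.9 CPM) and Gata6 (104 and 24.7 CPM) carried the parietal sum. Lama1 (5.81 and 68.7 CPM), Col4a1 (50.3 and 152 CPM), Col4a2 (17.4 and 40.5 CPM), Pth1r, Thbd and Lamb1 had the opposite order, and Srgn was at 0 in both. Visceral and yolk sac endoderm genes, which mark cells rich in lysosomes, summed to at most 26.9 CPM in any library. Macrophages are rich in lysosomes too, and their markers Ptprc, Csf1r, C1qa, C1qb and Tyrobp were at 0 in all embryo libraries and averaged at most 0.415 CPM in spheroids. Globin reads brought embryo RFP+ replicate 1 to 1153 CPM for the blood list. Without that library 3 members were called in vivo (Ctsb, Ctsd and Laptm4a), and Ctsl, Tpp1 and Psap lost their calls. The log2 fold changes of those that lost their calls were -1.20, -1.97 and -3.47 without it and -1.22, -1.73 and -3.48 with it. Fewer members still were called without RFP+ replicate 2 or 4, as given above. Whether the globin reads play a part in the lost calls was not tested.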

How the data were processed

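Per the paper's methods and the submitters' processing notes, the authors trimmed the reads with Trimmomatic 0.36, aligned them to the mouse genome mm10 with HISAT2 2.0.4 and assigned them to genes with featureCounts 1.5.2. The deposited values are raw counts per gene symbol for 93 libraries, each amplified by template switching from 10 sorted cells. Mitochondrial transcripts were not among them. Groups were taken from the sample titles. Counts were fitted in edgeR 4.0.16 (R 4.3.3) with TMM scaling, filterByExpr (minimum count 10, minimum total 15, minimum proportion 0.7) and quasi-likelihood F-tests, in 4 separate fits, with Benjamini-Hochberg adjustment over all genes tested. The SE is the log2 fold change divided by the square root of F. The difference between sources was tested on 7 degrees of freedom. Levels are CPM after TMM scaling over all libraries. The procedure was tested on simulated data. DESeq2 1.42.0 was an alternative, and exact binomial intervals came from scipy 1.17.1. Exon lengths and gene positions came from GENCODE annotation of GRCm38, and promoters from RefSeq on GRCm38.p6. Alternatives were other scalings, filters, thresholds and fits, plate position, shallow libraries, summed neighbouring wells and each embryo library left out.

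The members and gene lists were chosen by name, but with earlier results of these data known, so the choice may not be independent of the data. Full values were given for members called in vivo, for the member of highest mean CPM and that of largest change in vitro in each function, for members called with opposite signs, and for those whose embryo populations did not overlap. Intervals and floors cover counting error only. A floor is the CPM of 3 counts in a library, averaged over the group. In 7 rows of the plate, the spheroid RFP+ wells of columns 3 and 4 resembled each other closely (chi-square per degree of freedom 1.37 to 2.39, against 2.68 to 14.2 in 1028 other pairs), though they differed by more than sampling noise. They were counted separately, but in amplified libraries this does not show separate cells, so 46 may exceed the number of distinct samples. With these pairs summed, 29 members were called in vitro as before.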

Additional observations from a re-analysis of the deposited data

Results flagged for a closer look

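Single embryo libraries stood apart from the others of their group for several members, among 34 groups examined, of which 7 were singled out, where chance gives about 1 in 20. GFP+ replicate 2 was highest for Ctsl (1424 CPM), Hexa (225.8 CPM) and Cd63 (308.4 CPM), and was the deepest GFP+ library in vivo with 2525460 reads. GFP+ replicate 4 was lowest for Laptm4a (273.2 CPM), and GFP+ replicate 5 was highest for Manba (140.1 CPM). RFP+ replicate 1 was highest for Ctsz (337.4 CPM) and was the RFP+ library with Manba reads (3.643 CPM). Laptm4a kept its call without GFP+ replicate 4, and Ctsl kept its call without GFP+ replicate 2.

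The change from GFP+ to RFP+ cells differed between spheroids and embryos for Cd63 (log2 fold change lower in vitro, difference -2.60) and Laptm4a (difference 1.60). In embryos Cd63 was not called on its own, and in spheroids it was 2.95-fold higher in GFP+ cells. The part that markers of other cell types play in these differences was not tested.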

How the results depend on the processing

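With DESeq2 the 6 members called in vivo became 8, where 18% of all genes were called. Of these 8, 6 were higher in GFP+ cells and 2 in RFP+ cells (Naglu and Scarb2). In 1 edgeR fit over the 4 groups 22 were called (15 higher in GFP+ and 7 in RFP+ cells, where 56.2% of all genes were called). Plate column 12 alone, which holds only replicates 1 and 3 of the RFP+ libraries, gave 2 (Ctsd and Laptm4a), where 3.22% of all genes were called. The number called in vivo ranged from 2 to 7 when an embryo library was left out, with 3 without RFP+ replicate 1, 2 without RFP+ replicate 2 or 4 and 7 without GFP+ replicate 3. The 2 members that differed between the sources became 16 in the interaction of 1 fit over the 4 groups and 1 at an adjusted p under 0.05, and ranged from 1 (without RFP+ replicate 2) to 4 (without GFP+ replicate 3) with a library left out. Shares of all genes called are not given for that interaction or for fits with a library left out, so those counts have no background here. The cause of these shifts was not tested. The calls in vitro stayed between 28 and 33, those between sources between 21 and 27 in GFP+ and between 9 and 12 in RFP+ cells under the alternatives other than leaving out a library. Of 402 values for single members in vivo under alternatives, 366 kept their side of the threshold, 14 passed it newly and 22 lost it, and in vitro 3 of 240 lost it (Lipa with no filter and in the joint fit, Laptm4b in the joint fit). None of these reversed a call. No paired analysis was possible because the replicate numbers only follow the order of the samples and the wells of different groups share no embryo or culture in the labels. The 2 deepest embryo GFP+ libraries (2525460 and 2267669 reads) held 8302 and 7699 genes, fewer than any embryo RFP+ library. The cause of the lower number of detected genes was not tested.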
